A study of Homo sapiens with 15 samples.

Results

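The data described here concern 10 members of the Krüppel-like factor (KLF) family other than the erythroid factor KLF1, namely KLF2, KLF3, KLF4, KLF5, KLF6, KLF9, KLF10, KLF11, KLF13 and KLF16. They were taken by gene symbol from a table of raw read counts for 60649 genes, so they are 10 of 60649. The list was drawn up by gene name, but with earlier results of these data known. The counts come from poly(A) mRNA-seq of K562 cells, an erythroleukaemic line from a chronic myeloid leukaemia with the BCR-ABL fusion. The cells were either left untreated or given martinostat, an inhibitor of histone deacetylases (HDACs), for 24 h at 1 of 4 doses (0.15 µM, 0.25 µM, 0.5 µM and 1 µM), with 3 libraries in each of the 5 groups. All 15 libraries come from this one line, and the labels call the 3 of a group biological replicates, without saying what the replicate numbers share across doses.

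KLFs are transcription factors that bind GC-rich and CACCC-type DNA through C2H2 zinc fingers at the carboxyl terminus, while the amino-terminal part sets which cofactors they recruit. KLF2, KLF4, KLF5 and KLF6 are commonly grouped as factors that recruit histone acetyltransferases and often activate transcription. KLF3 belongs to a subgroup that represses through the corepressor CtBP, and KLF9, KLF10, KLF11, KLF13 and KLF16 bind SIN3A, a scaffold that carries HDAC1 and HDAC2. In red cell precursors KLF1 drives the globin and membrane programme, and KLF3 can occupy and repress some of the same promoters.

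Library totals ran from 23755510 to 32805574 counts, and all 10 factors were among the 23711 genes that passed the filter on low counts. Levels are given as CPM, the reads of a gene per 1e6 counts of a library after scaling by TMM (trimmed mean of M-values). A gene was called when its Benjamini-Hochberg adjusted p from edgeR's quasi-likelihood test, taken over all genes tested, was under 0.05. The TMM factors were 0.785 to 0.828 in the untreated libraries and 0.95 to 1.28 in the treated ones, and over all genes tested the median change from untreated was 0.28, 0.32, 0.34 and 0.32 (log2) at the 4 doses in turn. The third libraries at 0.25 and 0.5 µM stood apart from their group mates: the chi-square per degree of freedom between libraries was 70.5 to 128 for pairs with one of them, and 20.2 and 20.5 for the other pair of each group. To a smaller extent the third library at 0.15 µM (35.0 and 40.0, against 11.4 for the other pair) and the second at 1 µM (38.3 and 44.9, against 6.49) did so too. The 11 genes used as K562 markers were detected in every group, with sums of 3600 to 3950 CPM untreated and 1710 to 1830 CPM at 1 µM. Several lists among 20 markers of other cell types were higher at 1 µM. The summed fibroblast list went from between 21.9 and 25.3 CPM untreated to between 301 and 485 CPM, mostly COL1A1. The monocyte list went from between 0.463 and 0.978 to between 23.1 and 31.4 CPM, mostly CSF1R, and the megakaryocyte list from between 4.74 and 5.13 to between 32.3 and 35.7 CPM, mostly ITGA2B and ITGB3. The endothelial list reached 3.45 to 5.50 CPM and the B cell list 8.26 to 8.97 CPM, from at most 0.156 and 4.69 CPM. The T cell list was at 3.51 to 4.62 CPM untreated, 15.6 to 22.6 CPM at 0.15 µM and 1.84 to 4.32 CPM at 1 µM. PF4, MARCO and MS4A1 had at most 4 counts in any library. What part these markers had in the results below was not tested. Fewer cells of a type and less RNA per cell cannot be told apart in such bulk samples.

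The sequences just before 4 of the genes are printed because these genes cover the range of responses: KLF2 and KLF6 rose, KLF16 fell and KLF13 was called at 1 dose. They are RefSeq sequence of GRCh38.p14, written 5′ to 3′ on the strand of each gene, and they end at the last base before the gene as GENCODE annotates it. Capitals mark GC boxes, GGGCGG or its reverse complement CCGCCC, and CACCC boxes, CACCC or its reverse complement GGGTG, on either strand. KLF2 is at chr19:16324576-16324825 on the plus strand, KLF6 at chr10:3785282-3785459 on the minus strand, KLF13 at chr15:31326585-31326834 on the plus strand and KLF16 at chr19:1863580-1863829 on the minus strand.
KLF2: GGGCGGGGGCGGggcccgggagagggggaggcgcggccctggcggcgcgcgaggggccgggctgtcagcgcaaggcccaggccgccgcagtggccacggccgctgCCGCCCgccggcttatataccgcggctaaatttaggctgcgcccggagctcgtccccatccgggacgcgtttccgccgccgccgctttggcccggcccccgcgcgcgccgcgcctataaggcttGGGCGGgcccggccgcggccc
KLF6: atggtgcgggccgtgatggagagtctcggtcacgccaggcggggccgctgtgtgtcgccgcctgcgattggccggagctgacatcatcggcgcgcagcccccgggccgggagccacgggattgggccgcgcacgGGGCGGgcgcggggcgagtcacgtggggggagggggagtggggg
KLF13: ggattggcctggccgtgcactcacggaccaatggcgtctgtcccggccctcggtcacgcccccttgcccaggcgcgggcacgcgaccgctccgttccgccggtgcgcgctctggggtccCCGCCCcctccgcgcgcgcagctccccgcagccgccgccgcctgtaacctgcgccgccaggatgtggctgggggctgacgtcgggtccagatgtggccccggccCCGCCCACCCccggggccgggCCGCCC
KLF16: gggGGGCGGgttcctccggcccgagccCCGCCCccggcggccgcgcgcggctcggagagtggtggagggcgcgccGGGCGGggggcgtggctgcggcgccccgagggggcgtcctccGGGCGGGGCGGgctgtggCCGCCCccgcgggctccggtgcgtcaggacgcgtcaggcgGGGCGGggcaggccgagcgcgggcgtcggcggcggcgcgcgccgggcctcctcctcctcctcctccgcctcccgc
The KLF16 stretch holds 7 GC boxes, the KLF2 stretch 4, the KLF13 stretch 3 and the shorter KLF6 stretch 1. The single CACCC box is in KLF13, where it overlaps a GC box.

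The reference table holds 250-base windows upstream of the start for 8 of the 10 factors, with 2 windows each for KLF5 and KLF11. Over all 35116 windows of that length in the table, 42.6% hold a GC box, 54.7% a CACCC box, 32.0% a CCAAT box (CCAAT) and 10.7% the TATA box letters TATAAA. GC boxes were found in windows of 7 factors, which were KLF2, KLF4, KLF5, KLF6, KLF11, KLF13 and KLF16. The windows of KLF16 and KLF2 were 86.4% and 80.0% G and C, against a median of 58.0% over all windows. The KLF9 window was the exception, with 32.4% G and C, no GC box and 2 CCAAT matches, and one of the KLF5 windows was likewise poor in G and C at 40.8%. A motif match is a description of the letters and says nothing of binding in these cells.

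The 10 factors moved in different directions: KLF2, KLF4, KLF5 and KLF6 rose at all doses, KLF10 rose at the 2 upper ones, and KLF3 and KLF16 fell. In all, 7 of the 10 factors were called at 0.15 µM (4 higher, 3 lower), when 51.2% of all 23711 genes tested were called, 31.9% higher and 19.4% lower. The 0.25 µM group had 8 called (4 higher, 4 lower) against 62.2% of all genes, 37.4% higher and 24.8% lower. The 0.5 µM group had 8 (5 higher, 3 lower) against 66.9%, 39.4% higher and 27.6% lower. The 1 µM group had 8 (5 higher, 3 lower) against 66.2%, 38.8% higher and 27.5% lower. The untreated libraries are shared by these 4 comparisons. The median log2 change of the 10 was −0.17, −0.17, 0.49 and 0.51 in dose order. With library totals the all-gene medians were 0.64, 0.84, 0.72 and 0.67, and the count at 0.15 µM became 4 higher and 0 lower. At that dose 62.2% of all called genes were higher by TMM and 81.8% by library totals. In the test of any difference among the 5 groups, 8 factors passed, as did 73.6% of all genes tested, with adjusted p = 0.164 for KLF9 and 0.0605 for KLF13.

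KLF2, KLF4, KLF5 and KLF6, the factors grouped with acetyltransferases, were higher at every dose than in untreated cells. At 1 µM the log2 fold change was 4.62 ± 0.31 (SE) for KLF2, 2.62 ± 0.32 for KLF5, 2.13 ± 0.26 for KLF4 and 2.09 ± 0.19 for KLF6, with edgeR adjusted p-values of 1.88e-10, 6.59e-07, 6.81e-07 and 1.65e-08. These 4 calls, at each of the 4 doses, held under all 25 alternative settings. The 4 genes started from different levels, since KLF6 was well expressed in untreated cells and the other 3 were close to silent.

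KLF2 is the factor that keeps lymphocytes quiescent and that endothelial cells induce under laminar flow. It was nearly silent in untreated cells, with 0.408, 0.540 and 0.665 CPM from 10, 14 and 17 counts. At 0.15 µM it measured 2.53, 1.97 and 1.92 CPM, and at 0.25 µM 4.77, 5.75 and 3.40 CPM. At 0.5 µM it measured 8.82, 14.1 and 15.8 CPM, and at 1 µM 14.1, 11.7 and 14.2 CPM. Each of the first 3 doses lay wholly above the group before it, whereas the 0.5 and 1 µM libraries overlapped. The step from 0.15 to 0.25 µM was 1.11 ± 0.26 (edgeR adjusted p = 0.00885) and that from 0.25 to 0.5 µM was 1.48 ± 0.25 (adjusted p = 0.000146). Without the third libraries at 0.25 and 0.5 µM the latter step was 1.13 with adjusted p = 0.000773. On the FPKM scale with limma the lower step fell short, at 0.59 with adjusted p = 0.0522.

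KLF4, best known as a reprogramming factor and a regulator of epithelial and monocyte differentiation, also started low, with 1.06, 1.85 and 1.96 CPM in the untreated libraries. The 0.15 µM libraries held 4.11, 3.74 and 3.78 CPM, the 0.25 µM libraries 5.72, 9.61 and 8.15 CPM, the 0.5 µM libraries 8.87, 8.78 and 8.53 CPM and the 1 µM libraries 6.06, 6.80 and 8.60 CPM. Its groups separated from untreated to 0.15 µM and from 0.15 to 0.25 µM, and overlapped above that. Relative to untreated cells KLF4 changed by 1.25 ± 0.26 (log2) at 0.15 µM and 2.26 ± 0.26 at 0.25 µM, and the step between these doses was 1.01 ± 0.24 (edgeR adjusted p = 0.0101). That step was 0.83 with adjusted p = 0.0583 without the second library at 0.25 µM. KLF4 had no called step above 0.25 µM, where the differences were 0.16 ± 0.23 to 0.5 µM and −0.29 ± 0.24 from there to 1 µM. Of its exon bases, 9.75% lie under exons of a gene on the opposite strand that was not used here.

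KLF5, a factor of proliferating gut epithelium, measured 1.55, 1.00 and 1.88 CPM in untreated cells and 4.21, 2.54 and 3.54 CPM at 0.15 µM. The 0.25 µM libraries held 4.88, 5.36 and 2.78 CPM, the 0.5 µM libraries 10.0, 9.44 and 5.81 CPM and the 1 µM libraries 7.98, 10.2 and 9.13 CPM. All treated libraries were above all untreated ones, and the lowest values at 0.25 and 0.5 µM were both in replicate 3. The step from 0.25 to 0.5 µM was 0.96 ± 0.29 (edgeR adjusted p = 0.0169). It missed the threshold when the third 0.25 µM library (0.74, adjusted p = 0.0714), the first 0.5 µM library (0.81, adjusted p = 0.0696) or the second 0.5 µM library (0.86, adjusted p = 0.0633) was left out. A fit of only the libraries compared also lost this step (0.95, adjusted p = 0.0614). With replicate 3 of both groups left out together it was 0.94 with adjusted p = 0.00757.

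KLF6, a widely expressed factor studied as a tumour suppressor, was the most abundant of the 4 in untreated cells, at 37.3, 36.8 and 42.3 CPM. It stood at 57.0, 62.4 and 92.0 CPM at 0.15 µM, and at 124, 91.1 and 84.9 CPM at 0.25 µM. The 0.5 µM libraries held 123, 135 and 165 CPM and the 1 µM libraries 157, 151 and 186 CPM. Every treated library exceeded every untreated one, while neighbouring doses overlapped throughout. Relative to untreated cells the log2 changes at the 3 lower doses were 0.86, 1.36 and 1.87, each ± 0.19. The step from 0.25 to 0.5 µM was called at 0.50 ± 0.18 (edgeR adjusted p = 0.0458), but the call was lost under 16 of 25 alternatives. For 11 of these a single library was left out (0.37 to 0.53, adjusted p = 0.054 to 0.147), and without the third libraries at both doses the step was 0.28 with adjusted p = 0.27. The difference between 1 and 0.15 µM, 1.22 ± 0.19 with adjusted p = 2.89e-05, held in all of them.

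**Figure D1:**
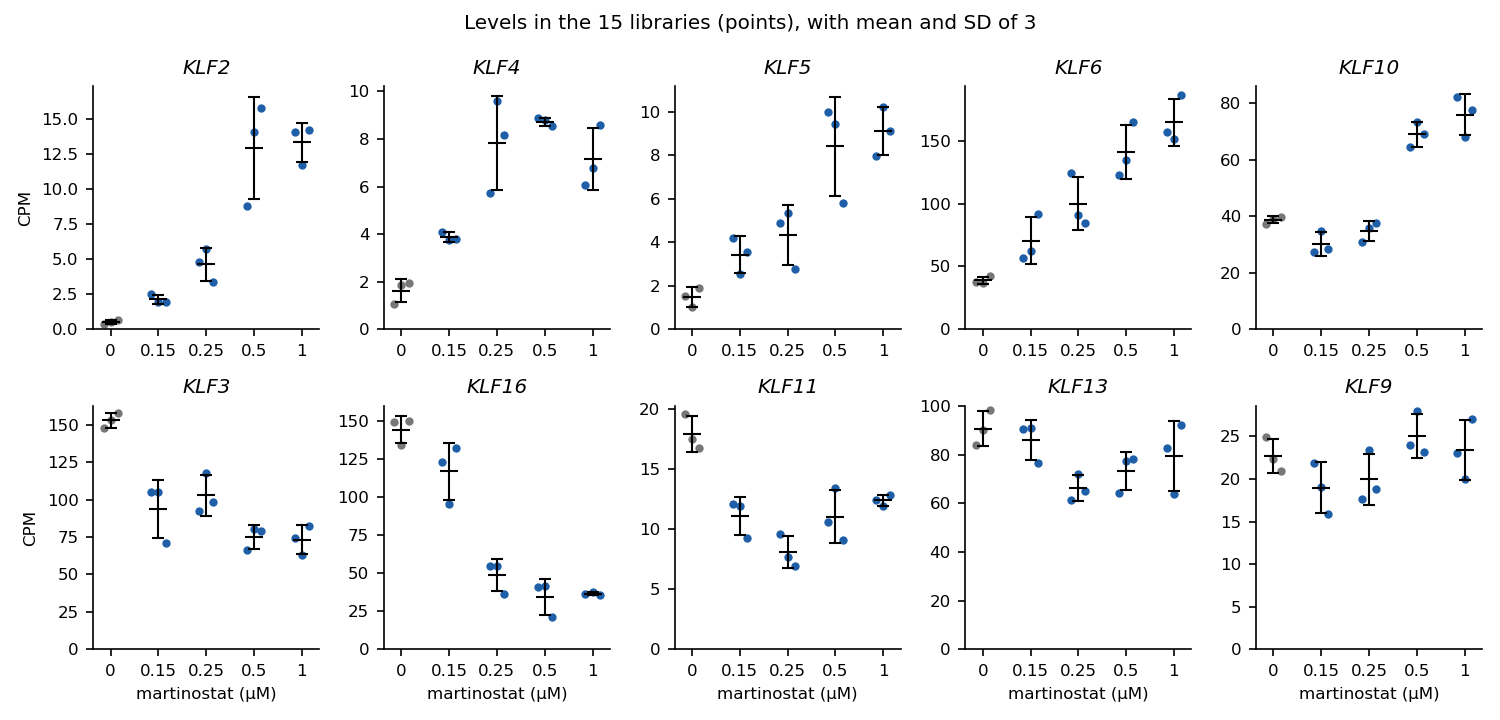
Levels of the 10 factors in CPM (TMM-scaled; vertical axes start at 0 and differ between panels) against martinostat dose in µM. Points are single libraries, grey for untreated, and the bars give the mean and SD of 3; KLF2 went from a mean of 0.538 to 13.3 CPM, KLF16 from 145 to 36.5 CPM, and the KLF9 group means stayed between 19.0 and 25.1 CPM.

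KLF3, the CtBP-dependent repressor, was lower in all treated groups. Untreated libraries had 148, 153 and 158 CPM, the 0.15 µM libraries 105, 105 and 71.1 CPM and the 0.25 µM libraries 92.1, 118 and 98.4 CPM. At 0.5 µM the values were 66.0, 80.6 and 78.7 CPM, and at 1 µM 74.0, 63.1 and 82.6 CPM. No treated library reached the untreated range. In order of dose the log2 changes were −0.70, −0.57, −1.03 and −1.06, each ± 0.16, with edgeR adjusted p-values of 0.00131, 0.00492, 1.92e-05 and 1.3e-05. The calls at 0.5 and 1 µM held under all 25 alternatives. Scaled by library totals, the 0.15 µM value was −0.34 (adjusted p = 0.131) and the 0.25 µM value −0.05 (adjusted p = 0.823), so these 2 calls rest on the scaling. The further drop from 0.25 to 0.5 µM, −0.45 ± 0.16 with adjusted p = 0.0399, was no longer called with the replicate number as a block (−0.45, adjusted p = 0.051) nor under 10 other alternatives, 8 of which left out a single library (−0.34 to −0.51, adjusted p = 0.0535 to 0.178). KLF3-AS1, whose exons lie opposite 3.91% of the KLF3 exon bases, was at 0.209 to 5.64 CPM over the 15 libraries.

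The 5 SIN3A-binding factors did not move as a block: KLF16 fell, KLF10 rose at the 2 upper doses, KLF11 fell by the TMM scaling, KLF13 was called lower at 0.25 µM and KLF9 was called at no dose. KLF16, described as a regulator of dopamine receptor genes, was the most abundant of the 10 per kilobase in untreated cells. It measured 149, 134 and 150 CPM untreated and 123, 95.7 and 132 CPM at 0.15 µM. The 0.25 µM libraries had 54.6, 54.4 and 36.4 CPM, the 0.5 µM libraries 40.7, 41.5 and 20.8 CPM and the 1 µM libraries 36.3, 37.5 and 35.5 CPM. The 0.15 µM libraries were all below the untreated ones, yet the change of −0.31 ± 0.21 was not called (edgeR adjusted p = 0.239) and was 0.05 by library totals. Without the third libraries at 0.25 and 0.5 µM this 0.15 µM change was called (−0.30, adjusted p = 0.0341). The larger fall lay between 0.15 and 0.25 µM, where the step was −1.27 ± 0.22 (adjusted p = 0.00106), and it held under all 25 alternatives. From untreated to 1 µM the change was −1.99 ± 0.22 (adjusted p = 2.37e-07). The lowest libraries at 0.25 and 0.5 µM were both replicate 3, and without them the changes from untreated were −1.38 and −1.78, against −1.58 and −2.08 with them. An annotated gene on the opposite strand covers 16.3% of the KLF16 exon bases and had no counts in any library.

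KLF10, an early response gene to TGF-β, behaved differently at low and high dose. Its untreated libraries held 37.3, 39.1 and 39.6 CPM, the 0.15 µM libraries 27.3, 34.9 and 28.2 CPM and the 0.25 µM libraries 30.7, 35.7 and 37.5 CPM. The 0.5 µM libraries had 64.4, 73.2 and 69.2 CPM and the 1 µM libraries 82.2, 67.9 and 77.5 CPM. The libraries of the 2 upper doses were all above every library of the other 3 groups. The step from 0.25 to 0.5 µM was 0.99 ± 0.14 (edgeR adjusted p = 1.71e-05), and the change from untreated was 0.83 ± 0.14 at 0.5 µM and 0.97 ± 0.14 at 1 µM. These 3 calls held under all 25 alternatives, with the change at 1 µM ranging from 0.91 to 1.35. The value at 0.15 µM, −0.36 ± 0.14 with adjusted p = 0.0328, was not a stable call: it was lost when any 1 of 5 of the 6 libraries compared was left out (−0.29 to −0.39, adjusted p = 0.0534 to 0.136), and it was 0.00 by library totals.

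KLF11, a close relative of KLF10 that regulates the insulin gene in pancreatic beta cells, was lower at all doses by TMM scaling. It had 19.6, 17.5 and 16.7 CPM untreated, 12.1, 11.9 and 9.21 CPM at 0.15 µM and 9.58, 7.68 and 6.95 CPM at 0.25 µM. It then stood at 10.6, 13.4 and 9.10 CPM at 0.5 µM and 12.4, 11.9 and 12.8 CPM at 1 µM. All treated libraries were below the untreated ones, and the lowest group was 0.25 µM, where the log2 change was −1.15 ± 0.19 (edgeR adjusted p = 2.73e-05) and was called under all 25 alternatives. The change at 1 µM was −0.53 ± 0.18 (adjusted p = 0.0152). That last call was lost under 5 alternatives, including library totals (−0.18, adjusted p = 0.393) and leaving out the first untreated library (−0.47, adjusted p = 0.0597). By library totals the changes at 0.15 and 0.5 µM were −0.33 (adjusted p = 0.143) and −0.34 (adjusted p = 0.111) and were not called. The difference from 0.25 to 0.5 µM, 0.45 ± 0.18, was not called (adjusted p = 0.073). Opposite-strand exons of another gene cover 9.06% of the KLF11 exon bases, and that gene reached at most 0.0715 CPM.

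KLF13, which activates the chemokine gene CCL5 in T cells, ranged from 83.9 to 98.3 CPM in untreated cells. In order of dose its treated libraries ranged from 76.5 to 91.2, 61.5 to 72.1, 64.2 to 78.4 and 64.0 to 92.3 CPM. It was called at 0.25 µM, at −0.46 ± 0.15 (edgeR adjusted p = 0.012), and at no other dose. By library totals this change was 0.07, and without the third untreated library it was −0.40 with adjusted p = 0.0555. KLF9, a gene that glucocorticoid and thyroid hormones induce, ranged from 20.9 to 24.9 CPM untreated, and its libraries overlapped with the untreated ones at every dose. Its log2 changes were −0.26 ± 0.17, −0.19 ± 0.17, 0.14 ± 0.17 and 0.04 ± 0.17 at the 4 doses, with edgeR adjusted p-values of 0.204, 0.341, 0.461 and 0.827. With TMM factors taken from genes of at least 10 CPM the 0.5 µM value was 0.55 (adjusted p = 0.00614), and 3 further alternatives also called KLF9 at that dose.

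**Figure D2:**
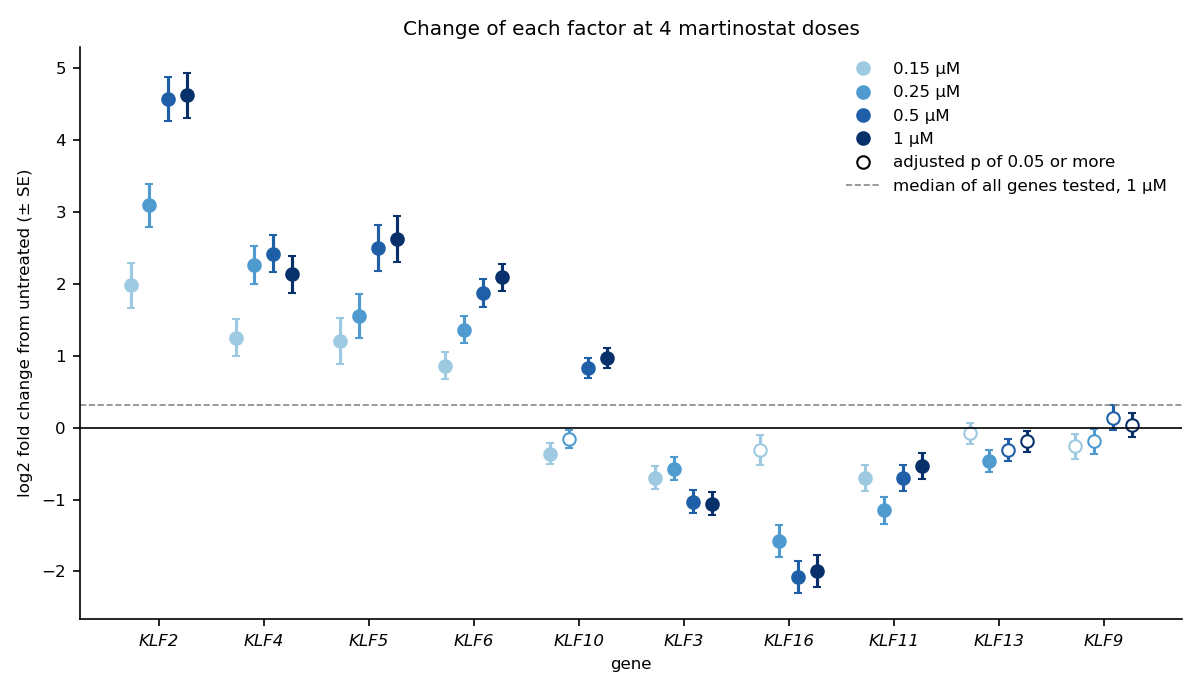
Log2 fold change from untreated cells with its standard error (edgeR, 15 libraries) for each factor at the 4 doses, from light blue for the lowest to dark blue for the highest; open circles have an adjusted p of 0.05 or more and the dashed line is the median of all genes tested at 1 µM, 0.32. KLF2 reached 4.62 and KLF16 −1.99 at 1 µM, while KLF10 was below 0 at 0.15 µM and above 0 at 0.5 and 1 µM.

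Between neighbouring doses, 3 factors were called from 0.15 to 0.25 µM (KLF2 and KLF4 higher, KLF16 lower), with 12.3% of all genes called, 4.96% higher and 7.32% lower. From 0.25 to 0.5 µM 5 were called (KLF2, KLF5, KLF6 and KLF10 higher, KLF3 lower), with 30.4% of all genes called, 14.4% higher and 16.0% lower. In that step the calls of KLF2 and KLF10 stood under all 25 alternatives, whereas the count of called factors ranged from 2 to 6 when single libraries were left out. From 0.5 to 1 µM 0 of the 10 and 0 genes in all (0%) were called by edgeR. At an unadjusted p under 0.05 that last step had 0 of the 10 factors and 372 of 23711 genes, and DESeq2 and limma also called 0 of the 10. The largest of the 10 differences there was −0.29 ± 0.24, for KLF4. Between the outer doses, 1 and 0.15 µM, 6 factors were called (KLF2, KLF4, KLF5, KLF6 and KLF10 higher, KLF16 lower), with 44.5% of all genes called, 21.5% higher and 23.1% lower.

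Levels of different genes were set side by side per kilobase of annotated exon. In untreated cells KLF16 led at 48.7 ± 3.15 CPM per kilobase (SD, n = 3), ahead of KLF3 at 22.6 ± 0.78, KLF10 at 10.1 ± 0.319, KLF13 at 9.63 ± 0.763 and KLF6 at 6.32 ± 0.493. KLF9 and KLF11 followed at 4.37 ± 0.391 and 3.90 ± 0.325. KLF4, KLF5 and KLF2 closed the order at 0.443 ± 0.133, 0.402 ± 0.12 and 0.191 ± 0.0454. The libraries of KLF10 and KLF13, of KLF9 and KLF11, and of KLF4 and KLF5 overlapped, and the other neighbours were apart.

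At 1 µM the order per kilobase was headed by KLF6 at 26.8 ± 3.02, then KLF10 at 19.9 ± 1.91, KLF16 at 12.3 ± 0.341, KLF3 at 10.8 ± 1.44 and KLF13 at 8.45 ± 1.53. KLF2 reached 4.72 ± 0.509, a level that overlapped with KLF9 at 4.50 ± 0.68. KLF11, KLF5 and KLF4 ended the order at 2.69 ± 0.0923, 2.47 ± 0.299 and 1.95 ± 0.357, and neighbours among these 3 overlapped, as did KLF16 with KLF3 and KLF3 with KLF13. The crossing of KLF6 and KLF16 fell at 0.25 µM, where both were at 16.3 CPM per kilobase. Of the summed level of the 10, KLF16 held 45.6% ± 1.6 untreated and 13.1% ± 1.49 at 1 µM, whereas KLF6 went from 5.92% ± 0.274 to 28.4% ± 1.33.

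**Figure D3:**
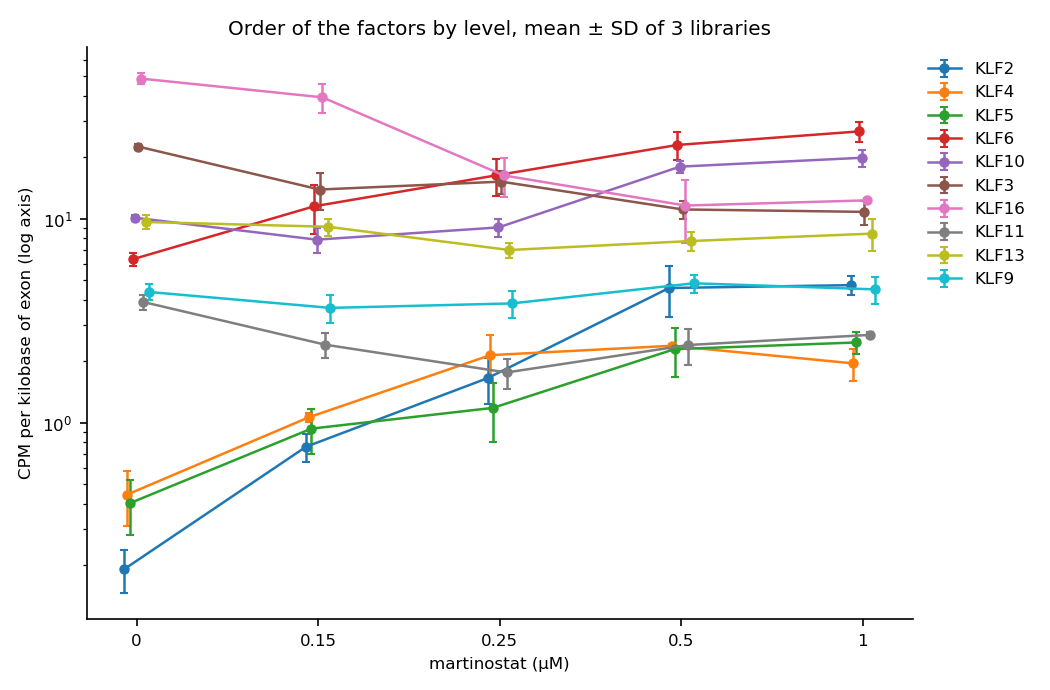
Level of each factor in CPM per kilobase of exon on a log axis against martinostat dose in µM; points and bars are the mean and SD of 3 libraries. KLF16 and KLF3 head the order in untreated cells and KLF6 and KLF10 at 0.5 and 1 µM, and KLF2 passes from the last place at 0.191 to 4.72.

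Within the whole family of 18 genes the summed level per kilobase was lower in treated cells, mostly through KLF1. The 18 summed to 361 ± 21.9 CPM per kilobase untreated and 93.4 ± 5.25 at 0.5 µM, and the 10 factors to 107 ± 4.1 and 87.9 ± 5.5. KLF1 made up 69.7% ± 1.34 of the family sum in untreated cells and 2.23% ± 0.447 at 1 µM, a log2 change of −6.83 ± 0.26 (edgeR adjusted p = 1.36e-13). The share of the 10 factors was 29.6% ± 1.41 untreated and, in order of dose, 43.4% ± 0.581, 68.8% ± 4.38, 94.1% ± 0.782 and 94.2% ± 0.917.

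The other 7 family members besides KLF1 were scarce in untreated cells. Counting KLF1, 4 of the 7 tested were called higher and 2 lower at 1 µM, with a median log2 change of 2.48 (KLF18 at its bound). At that dose 38.8% of all genes tested were called higher and 27.5% lower, and these shares stand beside the counts of the lists below too. KLF7 went from 2 counts over the 3 untreated libraries to 226 at 1 µM, KLF14 from 4 to 483 and KLF12, a repressor, from 86 to 546. KLF18 had 0 counts untreated and 54 at 1 µM, at least 16.0-fold higher against a floor of 3 counts over the group. KLF15, a factor of muscle and liver metabolism, fell from 447 counts to 162 (−1.64 ± 0.32, adjusted p = 0.000161), and KLF8 was not called. KLF17 did not pass the filter.

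The SP factors, which bind GC boxes with similar zinc fingers, divided between the widely expressed and the scarce. Of 9 genes 8 were tested, with 5 called higher and 3 lower at 1 µM and a median log2 change of 1.78. The abundant SP1 moved from 157 ± 5.37 to 114 ± 11.6 CPM (SD, n = 3) and SP3 from 145 ± 15.3 to 84.3 ± 5.89 CPM, changes of −0.46 ± 0.13 and −0.78 ± 0.19 on the log2 scale. Those calls depend on the scaling, since by library totals 5 SP factors were higher and 0 lower. Of all called genes at 1 µM, 69.3% were higher by library totals and 58.5% by TMM. SP4 rose from 20.8 ± 2.39 to 67.9 ± 6.53 CPM (1.70 ± 0.25, adjusted p = 9.8e-06) and SP6 from 5.17 ± 1.22 to 18.8 ± 0.751 CPM, and both held under all 25 alternatives.

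Among 11 corepressors and coactivators that KLFs bind, 2 were called higher and 6 lower at 1 µM, with a median log2 change of −0.60 against 0.32 for all genes tested. By library totals the split was 5 higher and 3 lower, with 69.3% of all called genes higher, against 58.5% by TMM. HDAC2, a class I deacetylase carried by SIN3A, fell from 333 ± 13.4 to 103 ± 3.95 CPM (−1.70 ± 0.13, adjusted p = 2.09e-09). HDAC1 measured 251 ± 13.3 and 320 ± 5.36 CPM and was not called at 1 µM (0.36 ± 0.17, edgeR adjusted p = 0.08). That result was not stable, since HDAC1 was called at 1 µM under 11 of 25 alternatives. At 0.5 µM it was called higher (0.47 ± 0.17, edgeR adjusted p = 0.0222). CTBP1, the partner of KLF3, fell from 139 ± 13.7 to 68.2 ± 4.79 CPM (−1.03 ± 0.14, adjusted p = 2.89e-06). Its paralog CTBP2 fell from 6.20 ± 0.558 to 2.55 ± 0.543 CPM. Opposite-strand exons of other genes cover 14.3% of the CTBP1 and 34.2% of the CTBP2 exon bases, and the strand setting of the counts is not known. SIN3A, the partner of the KLF9 and KLF16 subgroup, was lower at the 2 lower doses and higher at the 2 upper ones. From 122 ± 4.33 CPM untreated it went to 76.2 ± 7.68 CPM at 0.15 µM (−0.68 ± 0.14, edgeR adjusted p = 0.000448) and 75.6 ± 9.18 CPM at 0.25 µM (−0.69 ± 0.14, adjusted p = 0.000269). By library totals 0 of the 11 genes were called at 0.15 µM, and at 0.25 µM 1 was called higher and 1 lower. By TMM 0 were called higher and 6 lower at both doses, so most lower calls there rest on the scaling. Of all called genes at 0.25 µM, 79.2% were higher by library totals and 60.1% by TMM. SIN3A was at 156 ± 10.7 CPM at 0.5 µM (0.36 ± 0.14, adjusted p = 0.0277) and 152 ± 19.6 CPM at 1 µM (0.32 ± 0.14, adjusted p = 0.0478), and the 1 µM call was lost under 12 of 25 alternatives, the replicate block among them. The calls of HDAC2, CTBP1 and CTBP2 held in all 25.

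Among 15 genes for signals upstream of KLFs and for their degradation, 2 were called higher and 9 lower at 1 µM, with a median of −0.44. Of all genes tested 38.8% were called higher and 27.5% lower. By library totals the split of the 15 was 3 higher and 6 lower, with 69.3% of all called genes higher, against 58.5% by TMM. MEF2D and MAPK7, parts of the ERK5 and MEF2 route that induces KLF2 and KLF4, rose by 0.88 ± 0.14 and 0.64 ± 0.18 on the log2 scale. MAP2K5 of the same route was called lower (−0.44 ± 0.16, edgeR adjusted p = 0.0261), and MEF2A was not called (−0.17 ± 0.15). MEF2C fell by 1.05 (SE 0.18) on the same scale, from 28.7 ± 1.82 to 13.8 ± 2.04 CPM. NR3C1, the glucocorticoid receptor, fell from 44.3 ± 3.11 to 16.6 ± 1.94 CPM, and SMAD3 of the TGF-β pathway from 96.5 ± 1.54 to 29.7 ± 4.49 CPM. WWP1, a ubiquitin ligase for KLF2 and KLF5, fell from 52.0 ± 2.1 to 22.8 ± 4.3 CPM (−1.19 ± 0.16, adjusted p = 1.79e-06). The calls of MEF2D, MAPK7, NR3C1, SMAD3 and WWP1 held under all 25 alternatives, that of MEF2C under 24 and that of MAP2K5 under 18.

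**Figure D4:**
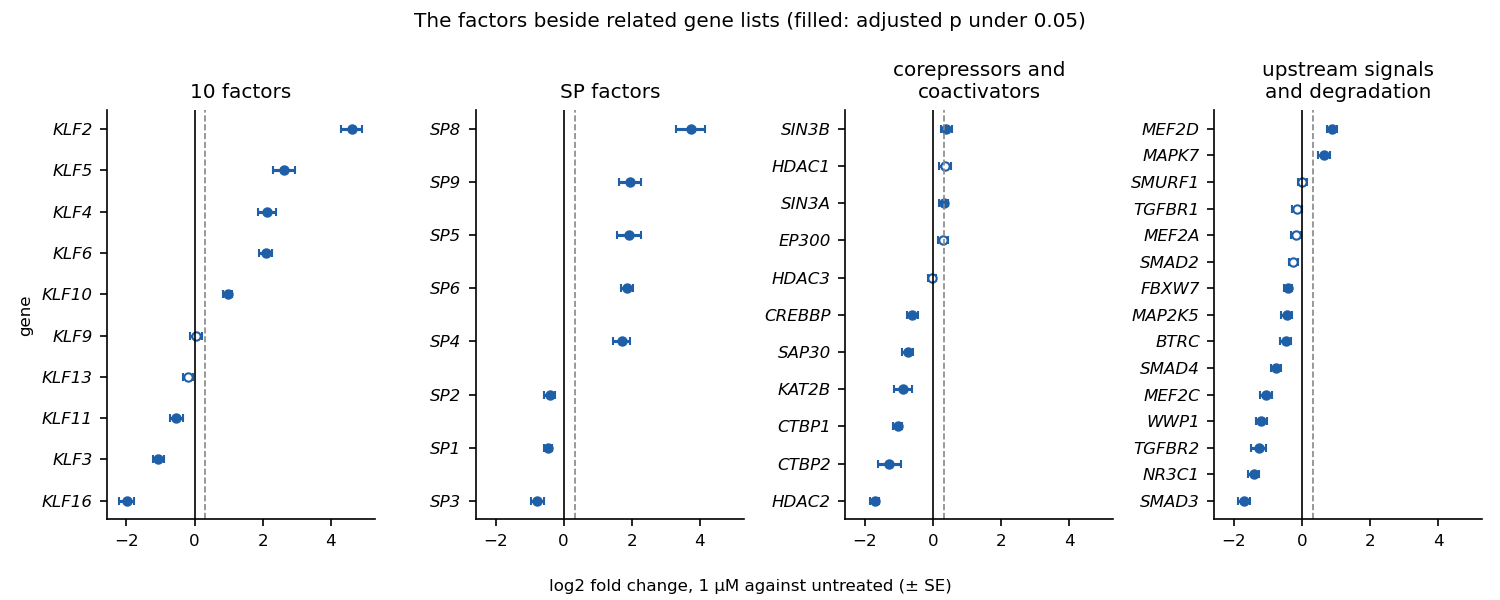
Log2 fold change at 1 µM against untreated, with its standard error, for the 10 factors, 8 SP factors, 11 corepressors and coactivators and 15 upstream or degradation genes; filled circles have an edgeR adjusted p under 0.05 and the dashed line is the all-gene median of 0.32. The 10 factors span −1.99 to 4.62, and the cofactors span −1.70 to 0.39.

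Of 14 textbook target genes of these factors, all tested, 9 were called higher and 3 lower at 1 µM, the same split under each of the 3 other scalings, and the median log2 change was 2.22 (ALPI and CCL5 at their bounds). CDKN1A, the cell cycle inhibitor that KLF4 and KLF6 activate, rose from 3.89 ± 1.07 to 356 ± 51.1 CPM (6.51 ± 0.25, adjusted p = 1.88e-13). ENG, a KLF6 target, rose from 0.751 ± 0.211 to 17.8 ± 2.61 CPM, and LGALS3, a KLF3 target, from 1.48 ± 0.366 to 7.39 ± 3.08 CPM. Targets did not move uniformly with the RNA of their factor, and whether the factors regulate them in these cells was not tested. THBD, which KLF2 induces in endothelium, went from 4.53 ± 0.568 to 0.431 ± 0.237 CPM at 1 µM (−3.38 ± 0.37, adjusted p = 1.78e-07), after changes of 0.59 (adjusted p = 0.116) and 0.04 (adjusted p = 0.916) at the 2 lower doses. S1PR1, a KLF2 target in T cells, rose most at the lower doses, where KLF2 itself was lower than at the upper ones. It went from 0.263 ± 0.119 CPM untreated to 6.83 ± 0.746 CPM at 0.15 µM (4.67 ± 0.41, adjusted p = 2.42e-08) and 7.81 ± 0.27 CPM at 0.25 µM (4.87 ± 0.41, adjusted p = 8.2e-09). From 0.25 to 0.5 µM it dropped (−2.79 ± 0.34, adjusted p = 5.1e-06), and at 1 µM it was at 0.904 ± 0.498 CPM, still called higher than untreated (1.77 ± 0.44, adjusted p = 0.00157, held under 23 of 24 alternatives). The S1PR1 libraries at 1 µM overlapped with the untreated ones. CCND1, induced by KLF5 in epithelium, was called higher at 0.15 µM (0.90 ± 0.21, adjusted p = 0.00138) and 0.25 µM (0.86 ± 0.21, adjusted p = 0.0014) and lower at 0.5 µM (−1.27 ± 0.22) and 1 µM (−1.45 ± 0.22, adjusted p = 9.14e-06). Its mean levels were 13.0 CPM untreated, then 24.2, 23.6, 5.36 and 4.75 CPM in order of dose. FASN fell from 2570 ± 409 to 402 ± 93.3 CPM at 1 µM. ALPI, a target of KLF4 in the gut, had 0 counts untreated and 127 at 1 µM, at least 37.5-fold higher against a floor of 3 counts over the group. CCL5, the KLF13 target, had 0 and 31 counts, a group mean at least 9.14-fold higher. Its single 1 µM libraries ran from 2 to 15 counts (0.361 ± 0.253 CPM), so this bound is uncertain.

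Over the 15 libraries the log2 levels of KLF2, KLF4, KLF5 and KLF6 followed one another, with Pearson's r of 0.83 to 0.96 for the 6 pairs. KLF16 ran opposite to KLF2 (r = −0.91) and KLF6 (r = −0.88), and the value for KLF9 with KLF3 was 0.07. All such values share the libraries, the scaling and the same 5 doses, so they are not independent of the dose response. Among 9609 protein-coding genes outside the KLF and SP families with a mean of at least 10 CPM, the pair most like KLF2 was NIT1 (r = 0.99) and CDON (0.988). For KLF16 it was PRR5 and MATK (both 0.993), for KLF10 SPAG9 (0.989) and LUZP1 (0.987), and for KLF3 SPRED2 (0.985) and ZNF644 (0.98). KLF6 was most like ADAT1 (0.985) and DUSP5 (0.981), and KLF5 most like CITED4 (0.984) and DBP (0.982). High likeness was common, since 674 genes had r over 0.9 with KLF2 and 1029 with KLF16, against 54 for KLF11, 1 for KLF13 and 0 for KLF9. KLF11 was nearest to POFUT1 (0.942) and ZNF598 (0.941), KLF13 to BRPF3 (0.903) and MCM3AP (0.862), and KLF9 to OSBPL8 (0.882) and RMND5A (0.879).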

How the data were processed

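The deposited counts are whole reads per gene, which the authors obtained by paired-end poly(A) mRNA-seq with a directional kit, Trim Galore 0.6.10, HISAT2 2.2.1 (hg38), SAMtools 1.21 and featureCounts 1.5.3; the strand setting is not given in the sources used here. The authors also deposited FPKM per library, and for the 10 factors the length behind it equals the whole gene span with introns. Raw counts were analysed with edgeR 4.0.16 (R 4.3.3): filterByExpr, TMM and a robust quasi-likelihood fit of all 15 libraries on group, with 10 residual degrees of freedom and a biological coefficient of variation of 0.228. The procedure was tested on simulated data. limma 3.58.1 on log2(FPKM + 1), with a pseudocount of 1, and DESeq2 1.42.0 served as alternatives, beside other scalings, filters, a replicate block, only the libraries compared, and leaving out each library. Exon lengths come from GENCODE 44, in which the 10 gene IDs have the versions of the count table, and promoters from RefSeq.

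Library pairs differed by a chi-square per degree of freedom of at least 6.49, so each counted as 1 sample. Same-numbered libraries deviated together between 0.25 and 0.5 µM (r = 0.209, 0.208 and 0.506), by the data and not by the labels, and r was at most 0.0731 for all other pairs of groups. Every factor is named; of the other lists any gene could be. Members and lists were chosen with earlier results of these data known. One of the target genes, and the genes most like KLF4, are not reported here.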

Additional observations from a re-analysis of the deposited data

How the results depend on the processing

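For the 10 factors, 58 changes were each recomputed under 25 alternatives. They covered all 10 factors against untreated and for 1 against 0.15 µM, but only the called factors for steps between neighbouring doses. A step that was not called could therefore not be tallied as gained. Of the 1450 values, 1346 kept direction and side of the threshold. With the sign kept, 61 lost the call and 12 gained one. A further 31 changed sign, and some of these had lost a call as well. The number called at 0.15 µM was 4 by library totals and 4 by limma on FPKM, and at 0.25 to 0.5 µM it was 2 with only the libraries compared. Leaving out single libraries gave 2 to 6 for that step, 6 to 7 at 0.15 µM, 7 to 8 at 0.25 and at 1 µM and 8 to 9 at 0.5 µM. The step call of KLF3 was lost with the replicate block (4 called instead of 5), as was the SIN3A call at 1 µM; the block changed no other call of the 10 factors.

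Sign changes came mainly from scaling. By library totals the values at 0.15 µM were 0.10 for KLF9, 0.00 for KLF10, 0.29 for KLF13 and 0.05 for KLF16; at 0.25 µM they were 0.33 for KLF9, 0.37 for KLF10 and 0.07 for KLF13; and KLF13 was 0.08 at 0.5 µM and 0.17 at 1 µM. When the TMM factors used genes of at least 10 CPM, values were 0.00 (KLF9) and 0.18 (KLF13) at 0.15 µM, 0.23 (KLF9) and 0.26 (KLF10) at 0.25 µM, and for KLF13 0.11 at 0.5 µM, 0.19 at 1 µM and 0.01 for 1 against 0.15 µM. With at least 10 counts in every library, KLF13 was 0.07 at 0.15 µM and 0.05 at 1 µM, and at 0.25 µM KLF9 was 0.07 and KLF10 0.11. By limma they were 0.04 (KLF9), 0.12 (KLF13) and 0.04 (KLF16) at 0.15 µM, 0.13 (KLF9), 0.30 (KLF10) and 0.03 (KLF13) at 0.25 µM, and for KLF13 0.03 at 0.5 µM and 0.07 at 1 µM. Leaving out single libraries, KLF9 at 1 µM ranged from −0.08 (without 1 µM replicate 3) to 0.15, with −0.01 without untreated replicate 3. KLF13 at 1 against 0.15 µM ranged from −0.23 to 0.02 (without 1 µM replicate 2). The cause was not tested.

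KLF2, KLF4 and KLF5 had 10 to 50 counts per untreated library, so their changes are less precise than those of KLF3, KLF10 or KLF16. Scaling sets where no change lies: a log2 change within about the shift between all-gene medians of its dose has no secure direction. These medians were 0.32 by TMM and 0.67 by library totals at 1 µM. They lay furthest apart at 0.25 µM, at 0.32 and 0.84.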
